A study of Mus musculus with 12 samples.

Results

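Natural killer (NK) cells read the surface of other cells through receptors that either start or block killing, and 8 such receptors outside the Ly49 family were followed here in immune cells of mouse liver. They were Ncr1 (NKp46), Klrc1 (NKG2A), Klrc2 (NKG2C), Klrd1 (CD94), Klrk1 (NKG2D), Klrb1c (NK1.1), Klre1 and Cd226 (DNAM-1). The genes were taken by symbol from the deposited expression table, where all 8 were found among 24319 entries, and all 8 passed the filter on low values that left 11991 genes for testing.

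RNA came from CD45-positive cells, that is, from leukocytes held back with magnetic beads, of C57BL/6 mice. All 12 libraries, controls included, were from mice whose livers had received human c-Myc and N-ras by hydrodynamic transfection, in which a fast, large-volume injection drives plasmid DNA into liver cells, at day 0. The combination group was given 4 mg/kg polyIC, a synthetic double-stranded RNA that mimics viral infection, on days 14, 16, 18, 20 and 22, and 200 µg of a PD-L1 antibody, which blocks an inhibitory ligand of T cells, on days 17, 19 and 21. The polyIC group was given the same polyIC with 200 µg of IgG in place of the antibody. The antiPDL1 group was given PBS in place of polyIC, with the antibody. The control group was given PBS and IgG. Each group had 3 libraries, numbered 0, 1 and 2, and no label says whether they came from separate mice, so p-values measure the spread between these samples, which may be technical. The protocol states that mice were killed on day 24, whereas the time point is labelled day 22.

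NK receptors work as opposed sets. CD94 joins NKG2A, whose tail carries inhibitory motifs, or NKG2C, which signals through the adaptor DAP12, and both pairs read Qa-1, a nonclassical MHC molecule. NKG2D binds stress-induced ligands and signals through DAP10, NKp46 and NK1.1 signal through FcRγ-type adaptors, and DNAM-1 binds the nectin-like molecules CD155 and CD112, for which TIGIT and CD96 compete. In the liver these receptors are carried by circulating NK cells and by resident type 1 innate lymphoid cells, and several of them (NKG2D, DNAM-1 and CD94/NKG2A in particular) also by activated CD8 T cells.

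The 6 Klr genes lie on mouse chromosome 6, in the NK gene complex, and Ncr1 lies on chromosome 7. RefSeq promoter windows of 300 bases that span the transcription start (assembly GRCm38.p6) were matched for 6 of the 8 genes. The first-listed window of each was searched on both strands for 3 short words known as core binding sequences of factors active in NK cells. TGTGGT, the core RUNX word, or its reverse complement ACCACA was present in 6 of the 6 windows, and in 16.9% of all 27025 promoter windows. GGTGTG, a core T-box word, was in 0 of 6, and in 19.0% of all windows. AGGAAG, an ETS word, was in the Klrb1c window only, at 3 places, and in 35.1% of all windows. The RUNX and T-box words share letters and can overlap. A match describes letters, not a bound site. The windows of a pair of activating receptors (Ncr1 and Klrc2) and of the gene with the largest polyIC difference (Klre1) are printed 5′ to 3′ on the gene's strand, at chr7:4337465-4337764 on the plus strand, chr6:129660547-129660846 on the minus strand and chr6:129577963-129578262 on the plus strand, with the RUNX word in capitals. An alternative Klre1 start listed by RefSeq had no RUNX word in its window.
Ncr1: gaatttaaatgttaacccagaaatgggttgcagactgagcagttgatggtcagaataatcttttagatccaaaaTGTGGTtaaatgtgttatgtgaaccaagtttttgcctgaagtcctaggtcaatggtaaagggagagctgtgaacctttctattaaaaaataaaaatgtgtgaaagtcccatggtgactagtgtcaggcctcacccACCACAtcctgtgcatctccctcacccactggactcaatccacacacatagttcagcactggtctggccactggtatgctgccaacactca
Klrc2: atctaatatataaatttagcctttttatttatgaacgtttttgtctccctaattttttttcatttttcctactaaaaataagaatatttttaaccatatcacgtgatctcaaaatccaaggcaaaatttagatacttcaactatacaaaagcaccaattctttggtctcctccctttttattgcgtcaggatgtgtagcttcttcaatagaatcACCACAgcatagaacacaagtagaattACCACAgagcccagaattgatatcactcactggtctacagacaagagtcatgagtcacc
Klre1: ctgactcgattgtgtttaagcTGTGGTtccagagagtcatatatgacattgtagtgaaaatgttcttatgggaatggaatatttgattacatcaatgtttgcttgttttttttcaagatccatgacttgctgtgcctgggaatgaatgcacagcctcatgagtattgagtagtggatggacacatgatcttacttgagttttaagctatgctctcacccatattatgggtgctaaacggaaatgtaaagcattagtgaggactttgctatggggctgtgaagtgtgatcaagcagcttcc

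Some of these genes share sequence, which bears on how reads were divided between them. Klrc1 and Klrc2 hold an identical run of 100 bases at the end of their coding sequence, positions 633 to 732 of 732 in Klrc1 and 615 to 714 of 714 in Klrc2, counted from the start codon. The run is shown because a read within it has no single origin.
Klrc1 and Klrc2: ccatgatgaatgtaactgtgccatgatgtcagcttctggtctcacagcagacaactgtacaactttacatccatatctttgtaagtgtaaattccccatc
Of all 50-base words in the annotated transcripts (GENCODE, GRCm38), 38.6% of those of Klrc1 and 16.3% of those of Klrc2 recurred in the other gene or in Klrc3. Of those of Klrb1c, 17.0% recurred in Gm44511, Klrb1a, Klrb1b or Klrb1-ps1. The shares were 0 for Ncr1, Klrd1 and Klrk1, 0.28% for Klre1 and 0.0196% for Cd226. Values of Klrc1, Klrc2 and Klrb1c are therefore less certain than the rest. Gm44511, which shares words with Klrb1c, is also the gene whose exons overlap those of Klrb1c on the same strand.

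Expression was given in FPKM, read counts scaled by transcript length and library size. A library's FPKM values summed to between 476111 and 677535. The entry Mir6236 alone took 16.2% to 20.6% of that sum in combination, 15.8% to 19.3% in polyIC, 7.59% to 11.1% in antiPDL1 and 4.97% to 15.7% in control libraries. The depth, known only in relative terms from the steps between low values, ran from 0.461 to 1. Its group means were 0.797 in combination, 0.546 in polyIC, 0.584 in antiPDL1 and 0.750 in control libraries. These depths are approximate, since 40 of 66 library pairs fitted them within 0.03 on the log2 scale. Ptprc, which encodes CD45, lay between 381 and 487 FPKM in combination, 371 and 416 FPKM in polyIC, 268 and 340 FPKM in antiPDL1 and 206 and 261 FPKM in control libraries. Hepatocyte transcripts were present in every library, with 8 markers summing to between 209 and 340 FPKM in combination, 1613 and 2253 FPKM in polyIC, 423 and 2294 FPKM in antiPDL1 and 1454 and 4412 FPKM in control libraries. Within groups, most libraries had most of the receptors on 1 side of the group mean. Of the 8, 7 were above it in polyIC replicate 1 (median deviation 0.35) and 6 in antiPDL1 replicate 1 (0.46). Only 2 were above it in polyIC replicate 0 (-0.42) and 1 in combination replicate 1 (-0.38). All 8 were above their group mean in combination replicate 2, by a median of 0.55 on the log2 scale, and in control replicate 2, by a median of 0.66, and all 8 were below it in control replicate 0, with a median of -0.46. In antiPDL1 replicate 0, 6 of the 8 were below it, with a median of -0.55, and that library had 214 FPKM of the T cell gene Cd3e, against 77.2 and 82.7 FPKM in the other antiPDL1 libraries.

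With polyIC and IgG, all 8 receptors had higher values in each of 3 libraries than in any control library, which was so for 16.2% of all genes, and with the antibody added 7 of them overlapped the control libraries. Differences are log2 changes on the log2(FPKM + 1) scale from 1 limma fit over the 12 libraries, called at a Benjamini-Hochberg adjusted p under 0.05 across 11991 genes. In whole-population RNA, more cells carrying a receptor and more receptor RNA per cell cannot be told apart.

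**Figure D1:**
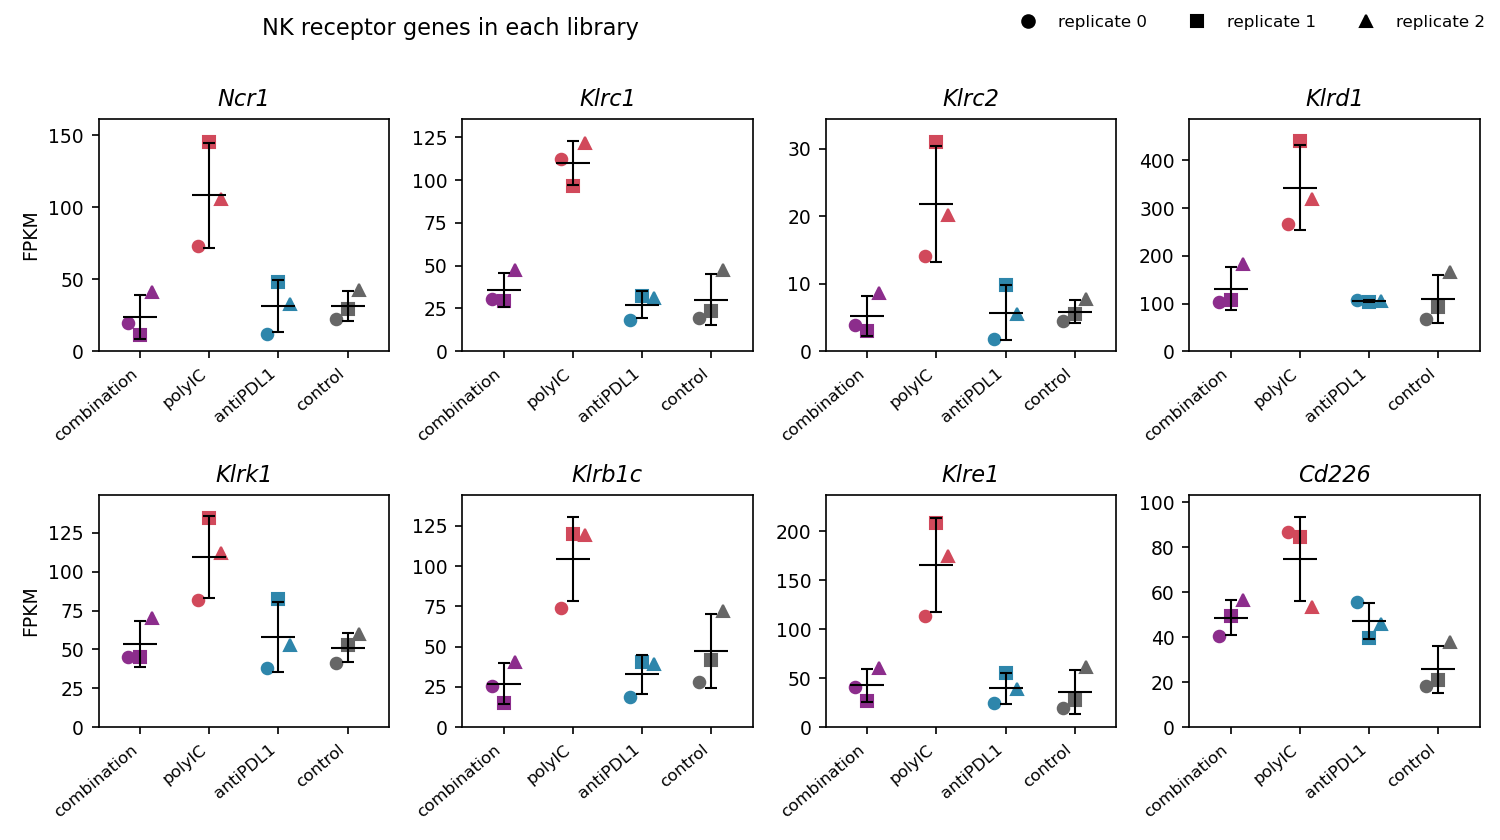
FPKM of each receptor gene in each library, with marker shape for the replicate number, a long line for the group mean and bars for the SD (n = 3 libraries per group). The polyIC libraries lie above the control libraries in all 8 panels, and the combination libraries lie below the polyIC libraries in every panel but Cd226.

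NKp46, encoded by Ncr1, is an activating receptor used to define NK cells and other innate lymphoid cells. Ncr1 had 19.5, 11.3 and 40.9 FPKM in combination libraries, 73.0, 145 and 106 FPKM in polyIC libraries, 12.3, 48.4 and 32.7 FPKM in antiPDL1 libraries and 22.3, 29.5 and 42.8 FPKM in control libraries. The 3 polyIC libraries were above the other 9, among which the groups overlapped. The mean in polyIC was 3.43 times that in control libraries, with a log2 change of 1.74 (SE 0.52) that missed the threshold (limma adjusted p = 0.0864). Combination minus polyIC was -2.26 (SE 0.52, limma adjusted p = 0.0622), the largest such difference among the 8, and it also missed the threshold.

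CD94, encoded by Klrd1, is the invariant chain that brings the NKG2 chains to the surface. Klrd1 had 103, 106 and 184 FPKM in combination libraries, 268, 441 and 319 FPKM in polyIC libraries, 108, 104 and 106 FPKM in antiPDL1 libraries and 68.6, 93.1 and 167 FPKM in control libraries. It had the highest mean of the 8 receptors in every group, with no overlap with the gene of next highest mean. In control libraries it did overlap Klrb1c, which had 72.3 FPKM in replicate 2, above the 68.6 FPKM of Klrd1 in replicate 0. Klrd1 rose in polyIC relative to control libraries by a log2 change of 1.70 (SE 0.32, limma adjusted p = 0.0196), a ratio of means of 3.13. Its difference between combination and polyIC was -1.40 (SE 0.32, limma adjusted p = 0.0635), and the 3 libraries of each group did not overlap. The antiPDL1 libraries were close together for this gene, with an SD of 2.21 FPKM (n = 3).

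NKG2A, encoded by Klrc1, is the inhibitory partner of CD94. Klrc1 had 30.6, 29.6 and 47.5 FPKM in combination libraries, 113, 96.4 and 122 FPKM in polyIC libraries, 18.4, 32.5 and 31.0 FPKM in antiPDL1 libraries and 19.6, 23.6 and 47.3 FPKM in control libraries. All polyIC libraries stood above the other 9. Klrc1 rose in polyIC relative to control libraries by 1.93 (SE 0.32, limma adjusted p = 0.0125). It was also the only receptor of the 8 that fell in combination relative to polyIC libraries past the threshold, with a change of -1.62 (SE 0.32, limma adjusted p = 0.0406).

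NKG2C, encoded by Klrc2, is the activating counterpart. Klrc2 had 3.90, 3.05 and 8.57 FPKM in combination libraries, 14.1, 31.0 and 20.2 FPKM in polyIC libraries, 1.78, 9.88 and 5.52 FPKM in antiPDL1 libraries and 4.42, 5.46 and 7.68 FPKM in control libraries. It was the lowest of the 8 in every group, with no overlap with the next gene. Its difference between polyIC and control libraries was 1.69 (SE 0.48, limma adjusted p = 0.0752), and that between combination and polyIC libraries was -1.92 (SE 0.48, limma adjusted p = 0.0771). Neither passed, although the 3 polyIC libraries were above the other 9. The ratio of Klrc1 to Klrc2 within a library averaged 7.70 ± 2.08 in combination, 5.70 ± 2.45 in polyIC, 6.41 ± 3.58 in antiPDL1 and 4.97 ± 1.03 in control libraries (SD, n = 3 each). These ratios overlapped between the groups, and they rest on the division of shared reads. The sum of Klrc1 and Klrc2 relative to Klrd1 averaged 0.315 ± 0.016 in combination, 0.402 ± 0.099 in polyIC, 0.313 ± 0.114 in antiPDL1 and 0.331 ± 0.019 in control libraries (SD, n = 3 each).

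NKG2D, encoded by Klrk1, recognises ligands that stressed or transformed cells display. Klrk1 had 45.1, 45.3 and 70.5 FPKM in combination libraries, 81.7, 135 and 112 FPKM in polyIC libraries, 38.0, 82.3 and 53.0 FPKM in antiPDL1 libraries and 41.0, 52.9 and 59.7 FPKM in control libraries. Among the 9 libraries outside the polyIC group, only antiPDL1 replicate 1 reached the lowest polyIC library. The log2 difference between polyIC and control libraries was 1.07 (SE 0.30, limma adjusted p = 0.0724), the smallest of the 8, with a ratio of means of 2.14. Combination minus polyIC was -1.02 (SE 0.30, limma adjusted p = 0.123).

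NK1.1, encoded by Klrb1c, is the NKR-P1 receptor used to mark NK cells in C57BL/6 mice. Klrb1c had 25.5, 14.9 and 40.3 FPKM in combination libraries, 74.2, 120 and 119 FPKM in polyIC libraries, 18.6, 40.4 and 39.2 FPKM in antiPDL1 libraries and 27.8, 41.8 and 72.3 FPKM in control libraries. Control replicate 2 came within 2 FPKM of the lowest polyIC library. The change between polyIC and control libraries was 1.20 (SE 0.43, limma adjusted p = 0.141), and between combination and polyIC libraries -1.99 (SE 0.43, limma adjusted p = 0.0524). Klrb1c was the receptor with the lowest value in combination relative to control libraries, -0.79 (SE 0.43, limma adjusted p = 0.179), with overlapping groups.

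Klre1 encodes a lectin-like chain that in mice and rats pairs with Klri1 or Klri2. Klre1 had 40.6, 26.9 and 60.2 FPKM in combination libraries, 114, 209 and 175 FPKM in polyIC libraries, 24.6, 55.6 and 38.5 FPKM in antiPDL1 libraries and 19.3, 27.3 and 61.4 FPKM in control libraries. The polyIC libraries again lay above the other 9. Klre1 rose in polyIC relative to control libraries by 2.29 (SE 0.44, limma adjusted p = 0.0203), a ratio of means of 4.60 and the largest of the 8. Its difference between combination and polyIC libraries was -1.96 (SE 0.44, limma adjusted p = 0.0586). Of its partners, Klri2 rose in polyIC relative to control libraries by 1.84 (SE 0.43, limma adjusted p = 0.0415), while Klri1 had a change of 0.95 and did not pass.

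DNAM-1, encoded by Cd226 on chromosome 18, is an immunoglobulin-family adhesion receptor of NK cells and T cells. Cd226 had 40.7, 49.3 and 56.4 FPKM in combination libraries, 87.0, 84.5 and 53.3 FPKM in polyIC libraries, 55.7, 39.8 and 46.0 FPKM in antiPDL1 libraries and 18.4, 20.9 and 37.8 FPKM in control libraries. Unlike the other 7, each treated group lay wholly above the control group. Cd226 rose in polyIC relative to control libraries by 1.54 (SE 0.28, limma adjusted p = 0.0152) and in combination relative to control libraries by 0.96 (SE 0.28, limma adjusted p = 0.0253). The antiPDL1 difference from control was of like size, 0.91 (SE 0.28), and missed the threshold (limma adjusted p = 0.202). Combination and polyIC libraries overlapped, with polyIC replicate 2 below combination replicate 2, and the difference of -0.59 (SE 0.28, limma adjusted p = 0.389) was not called.

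With polyIC alone against control, 4 of the 8 receptors (Klrc1, Klrd1, Klre1 and Cd226) rose, where 2.47% of all genes tested were called higher. The groups did not overlap in 8 of 8, against 16.2% of all genes with every polyIC library above every control library. Over the 8, the median log2 change was 1.70, against -0.01 over all genes, and the receptors were picked with earlier results of these data known. Ncr1, Klrc2, Klrk1 and Klrb1c had unadjusted p between 0.00398 and 0.0174. A two-sided exact permutation test of 3 against 3 libraries gave 0.1 for each of the 8 genes, the smallest p it allows, and over the 40 such tests of the 8 genes in 5 comparisons none was lower (0.235 after Benjamini-Hochberg adjustment over the 40). The calls depended on single libraries: none of the 8 passed without polyIC replicate 0, control replicate 0 or control replicate 1, only Klrc1 passed without polyIC replicate 1 and only Cd226 without polyIC replicate 2, whereas 7 passed without antiPDL1 replicate 0 and all 8 without control replicate 2.

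The antibody alone gave no call among the 8, in a comparison where 0.208% of all genes passed, all of them lower. Of the 8, 1 receptor, Cd226, had an unadjusted limma p under 0.05 (0.00726), a level that 2034 of the 11991 genes reached. Only Cd226 had no overlap with control libraries, against 4.61% of all genes higher without overlap. The other 7 changes lay between -0.49 (Klrb1c) and 0.23 (Klre1), each with a 95% interval that held 0. Without control replicate 2, Cd226 passed with a change of 1.21 (limma adjusted p = 0.0395). Without antiPDL1 replicate 0, the difference of Ncr1 was 0.37, against -0.16 with it, and no receptor passed.

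With both agents against control, 1 of the 8, Cd226, was called higher, where 13.1% of all genes were called higher, so that count is near the background. Cd226 was also the only receptor without overlap, against 25.6% of all genes higher without overlap. It no longer passed without combination replicate 1 or 2, nor without control replicate 0 or 1, at limma adjusted p between 0.0777 and 0.109, nor under quantile normalization (limma adjusted p = 0.0569). The other 7 lay between -0.79 (Klrb1c) and 0.33 (Klre1), and their intervals all held 0.

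Antibody added to polyIC gave a lower value for all 8 receptors, between -0.59 (Cd226) and -2.26 (Ncr1), with a median of -1.77 against 0.06 over all genes. In 7 of 8 the combination libraries were wholly below the polyIC libraries, against 16.1% of all genes. An unadjusted limma p under 0.05 was reached by 7 of 8, and by 1624 of the 11991 genes in either direction. After adjustment 1 of 8, Klrc1, was called lower, where 1.07% of all genes were. Klrc1 no longer passed without any 1 of the combination or polyIC libraries, nor without control replicate 1, with limma adjusted p up to 0.177, nor under quantile normalization, median-of-ratios rescaling or no filter on low values, with limma adjusted p up to 0.0934. The count over the 8 was 0 in those fits and 5 without control replicate 0 or 2, or without antiPDL1 replicate 0 or 2. With 3 against 3 libraries the two-sided exact permutation p was 0.1 for those 7 genes, the smallest possible, and 0.2 for Cd226.

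How far the polyIC difference was missing with the antibody was measured by setting combination against antiPDL1 beside polyIC against control. With the antibody the change with polyIC lay between -0.35 (Ncr1) and 0.39 (Klrc1), all 8 intervals held 0, all groups overlapped and 0 of 8 passed, where 0.125% of all genes passed and 20.4% did not overlap. None of the 8 had an unadjusted limma p under 0.05, a level that 1727 of the 11991 genes reached. Without the antibody the same genes had changes between 1.07 (Klrk1) and 2.29 (Klre1). For all 8 the upper 95% bound with the antibody was under the estimate without it. For 4 (Klrc1, Klrd1, Klre1 and Cd226) it was also under the lower bound without it. Those 4 are the receptors called in polyIC against control, and the share of all genes that met either rule was not computed. For Klre1, for example, the interval was -0.86 to 1.07 with the antibody and 1.33 to 3.26 without it, and for Ncr1 it was -1.50 to 0.79 with the antibody and 0.60 to 2.88 without it.

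**Figure D2:**
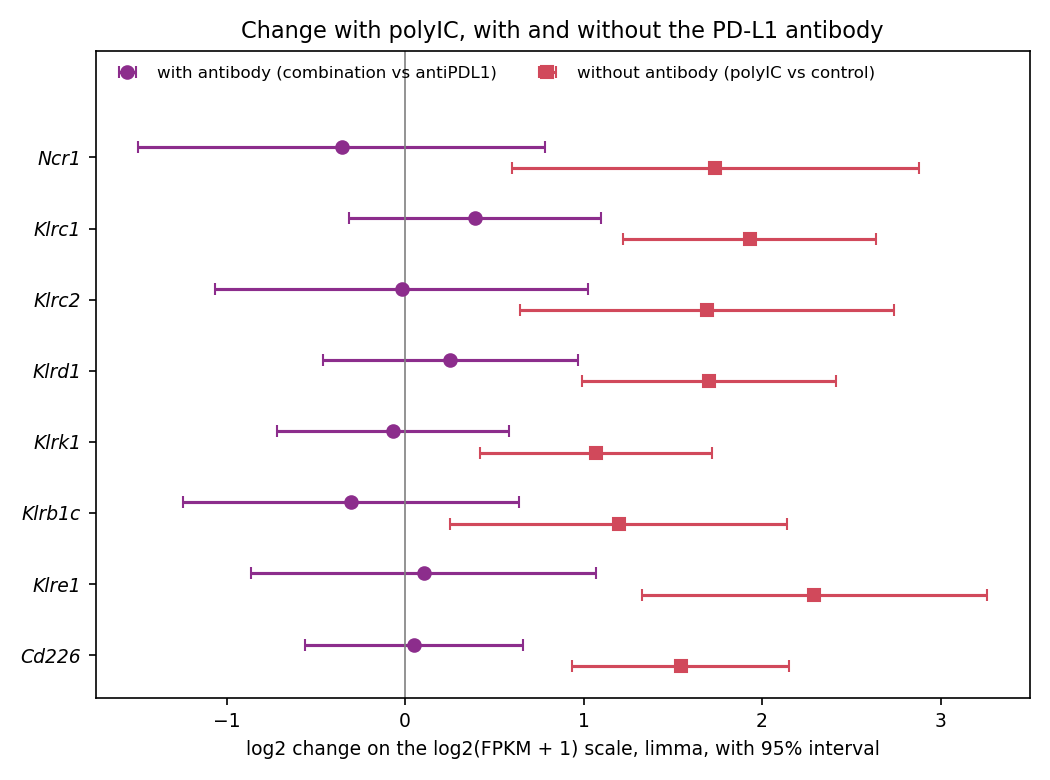
Log2 change with polyIC for each receptor with the antibody (combination minus antiPDL1, circles) and without it (polyIC minus control, squares), with 95% intervals from limma. All circles lie between -0.35 and 0.39 with intervals that cross 0, and all squares lie between 1.07 and 2.29.

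The test of that difference is the interaction, the change with polyIC in the presence of the antibody minus that in its absence. It was negative for all 8, between -1.14 (Klrk1, SE 0.42) and -2.19 (Klre1, SE 0.62), and -1.49 (SE 0.39) for Cd226. Unadjusted limma p lay between 0.00279 (Cd226) and 0.0307 (Klrb1c), under 0.05 for 8 of 8, a level that 293 of the 11991 genes reached. Adjusted over all genes, p was 0.999 for each, so 0 of 8 were called, where 3 genes (0.025%) were. The receptors were picked with earlier results of these data known and, apart from Cd226, varied together. The 8 values are therefore not 8 separate results. The sign held for all 8 in every fit that left out 1 library. Without antiPDL1 replicate 0 the interaction was -2.63 for Ncr1 (limma adjusted p = 0.601) and -2.24 for Klrc2 (limma adjusted p = 0.613).

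The receptors other than Cd226 varied together. Over the 12 libraries, the Pearson r of log2(FPKM + 1) was between 0.828 and 0.985 (median 0.924) in the 21 pairs without Cd226, and between 0.372 and 0.769 (median 0.562) in the 7 pairs with it. The points share libraries and their scaling, and the polyIC group alone would raise such values, so deviations from the group means were also taken. These had r between 0.576 and 0.977 (median 0.841) in pairs without Cd226 and between 0.0469 and 0.700 (median 0.215) in pairs with it. The closest pair was Ncr1 and Klrc2, at 0.985 over libraries and 0.977 within groups. Combination replicate 2 was above its group mean for all 8 receptors and control replicate 0 was below it for all 8, and in polyIC replicate 0 6 of the 8 were below their group mean while Cd226 and Klrc1 were above it.

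The non-member genes most like each receptor over the 12 libraries were mostly other genes of the NK gene complex. Ncr1 and Klrb1c were closest to Klrb1a, an NKR-P1 receptor, with r of 0.974 and 0.977. Klre1 and Klrc1 were closest to Klra8, Klrc2 to Klra23 and Klrd1 to the pseudogene Klra14-ps, all of the Ly49 family, whose members share reads with each other, with r of 0.975, 0.959, 0.979 and 0.968 in that order. Klrk1 was closest to Serpinb9b, a serpin, at 0.970. Cd226 was again separate, since its closest genes were Cd160 (0.942), Cd96 (0.917) and Stap1 (0.910). CD96 is, beside TIGIT, a receptor that shares the ligand CD155 with DNAM-1, and Tigit was not among these closest genes.

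**Figure D3:**
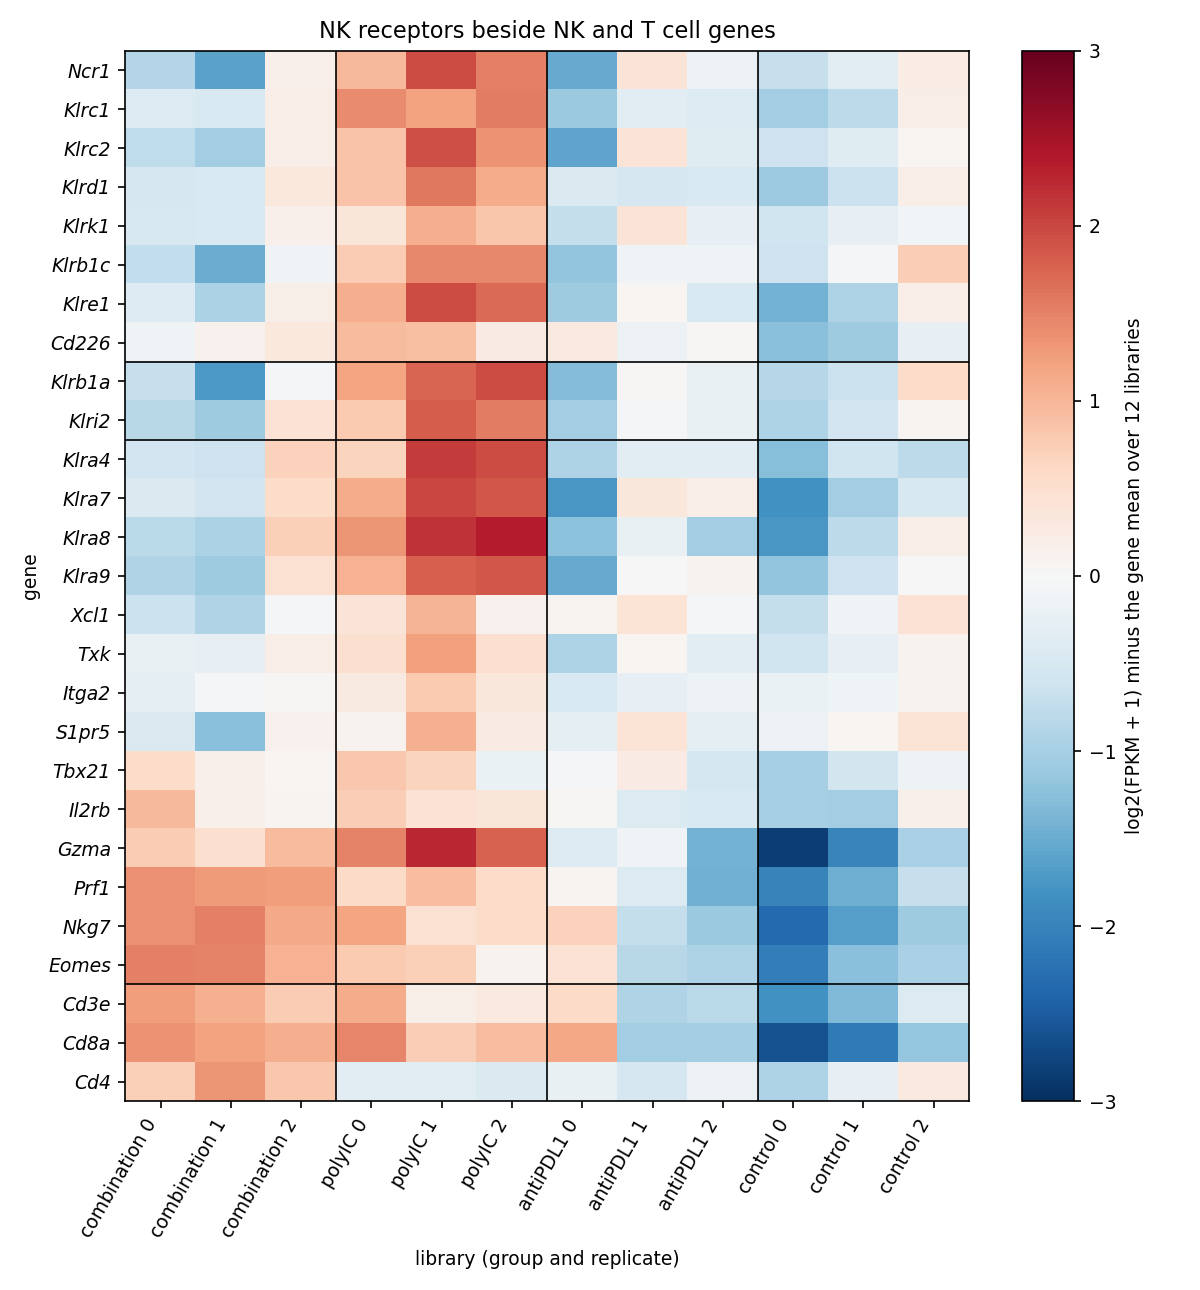
Log2(FPKM + 1) minus the gene's mean over the 12 libraries for the 8 receptors, 2 other NK receptors, all 14 NK cell markers and 3 T cell genes, with libraries ordered by group and replicate. Receptors other than Cd226 are red in polyIC libraries and mostly blue elsewhere, as are the Ly49 genes Klra4, Klra7, Klra8 and Klra9. Xcl1, Txk, Itga2 and S1pr5 are paler and have their highest group mean in polyIC, whereas Gzma, Prf1, Nkg7, Eomes and the T cell genes Cd3e and Cd8a are red in both combination and polyIC libraries.

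In combination libraries the receptors were low relative to Eomes and to the T cell genes Cd3e and Cd8a. Relative to Cd8a, their mean ratios were lower in polyIC than in control libraries as well. That was also so relative to Eomes for every receptor but Klre1 (9.10 in polyIC, 8.19 in control libraries). For Klrk1, Klrb1c and Cd226 relative to Eomes, every polyIC library was below every control library. Relative to Cd3e, only Klrk1, Klrb1c and Cd226 had a lower mean ratio in polyIC than in control libraries. Eomes, a T-box factor of NK cells and of some CD8 T cells, had 38.3, 37.7 and 27.6 FPKM in combination libraries, 22.7, 21.5 and 13.9 FPKM in polyIC libraries, 17.7, 6.73 and 6.22 FPKM in antiPDL1 libraries and 2.26, 4.77 and 5.97 FPKM in control libraries. It rose in combination relative to control libraries by 2.79 (SE 0.38, limma adjusted p = 0.00169). Eomes is 1 of 14 NK cell markers examined and 1 of the 3 with a higher value in combination than in polyIC libraries, beside Nkg7 and Prf1, and ratios to the other markers of the list were not examined. The ratio of Ncr1 to Eomes was accordingly 0.509, 0.301 and 1.48 in combination libraries, 3.22, 6.77 and 7.62 in polyIC libraries, 0.696, 7.19 and 5.26 in antiPDL1 libraries and 9.89, 6.18 and 7.17 in control libraries. All combination libraries, and antiPDL1 replicate 0, were below every polyIC and control library. The ratio of Ncr1 to Cd3e, a chain of the T cell receptor complex, also had those libraries below every polyIC and control library. Its mean was higher in polyIC (0.571) than in control libraries (0.488), whereas that of the ratio to Eomes was lower (5.87 and 7.75). The ratio to Cd3e was 0.0566, 0.0371 and 0.166 in combination libraries and 0.234, 0.885 and 0.593 in polyIC libraries. In antiPDL1 libraries it was 0.0575, 0.627 and 0.396, and in control libraries 0.553, 0.518 and 0.393. The ratio of Ncr1 to Cd8a was 0.0973, 0.0618 and 0.244 in combination libraries and 0.334, 1.11 and 0.707 in polyIC libraries. In antiPDL1 libraries this ratio was 0.0696, 1.28 and 0.853, and in control libraries 1.85, 1.72 and 1.25. For Cd8a, every polyIC library was thus also below every control library.

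Relative to Cd3e, Cd226 averaged 0.169 ± 0.056 in combination, 0.364 ± 0.131 in polyIC, 0.444 ± 0.161 in antiPDL1 and 0.390 ± 0.057 in control libraries (SD, n = 3 each). Relative to Ncr1, it averaged 2.60 ± 1.55 in combination, 0.759 ± 0.377 in polyIC, 2.25 ± 1.99 in antiPDL1 and 0.805 ± 0.088 in control libraries (SD, n = 3 each). The combination libraries, at 1.38 or more, were all above the polyIC libraries, whose highest was 1.19. Klrk1 relative to Ncr1 averaged 2.68 ± 1.18 in combination, 1.03 ± 0.10 in polyIC, 2.14 ± 0.83 in antiPDL1 and 1.67 ± 0.24 in control libraries (SD, n = 3 each). Here too the combination libraries were all above the polyIC libraries. Unlike for Cd226, the polyIC libraries, at 1.12 or less, were also all below the control libraries, at 1.39 or more. The combination and control libraries overlapped. Klrd1 relative to Ncr1 was likewise higher in all combination libraries, at 4.50 or more, than in polyIC libraries, at 3.67 or less. For Klrc1, Klrc2, Klrb1c and Klre1 relative to Ncr1, combination and polyIC libraries overlapped.

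**Figure D4:**
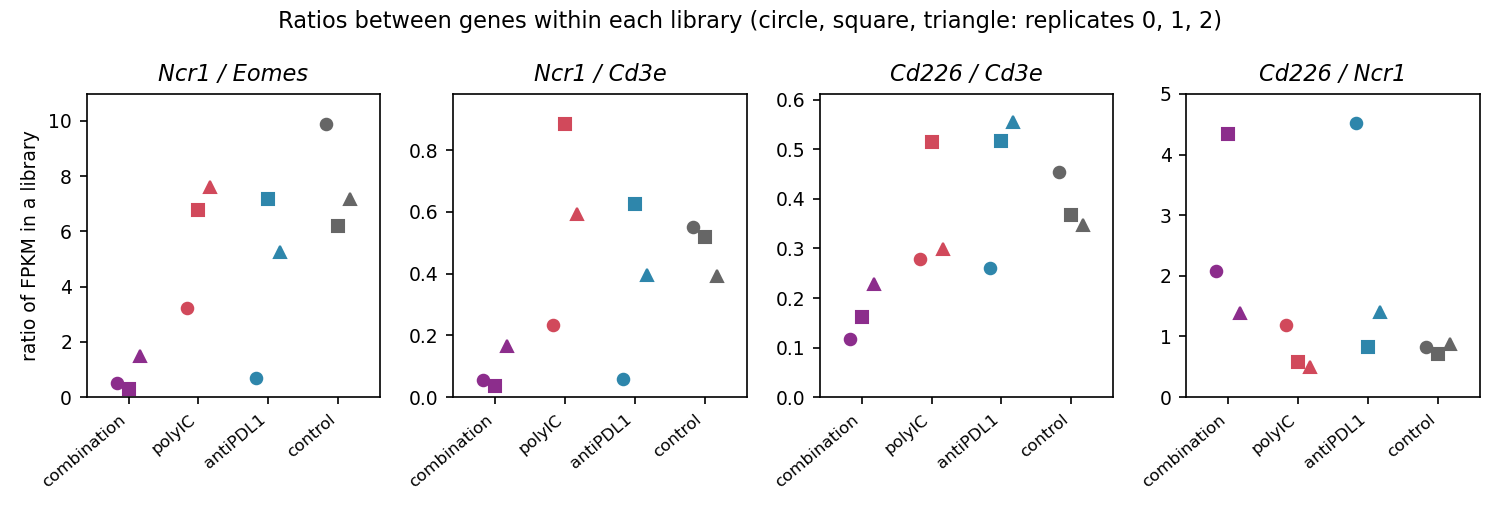
Ratios of FPKM within each library for 4 gene pairs, by group, with marker shape for the replicate number. Ncr1 relative to Eomes is at most 1.48 in combination libraries and in antiPDL1 replicate 0, and at least 3.22 in the polyIC and control libraries.

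A list of 15 other NK receptors outside the Ly49 family was set beside them. Against control, 8 of 15 rose with polyIC alone, led by Klrg1, an inhibitory receptor of mature NK and effector T cells, at 2.66 (SE 0.29, limma adjusted p = 0.00271) and Cd244, at 1.75 (SE 0.24, limma adjusted p = 0.00653). With both agents 7 of 15 rose against control, again led by Klrg1, at 2.20 (SE 0.29, limma adjusted p = 0.00151), and Tigit, the inhibitory rival of DNAM-1, at 4.47 (SE 0.62, limma adjusted p = 0.00176). In combination relative to polyIC libraries 2 of 15 fell, Klrc3, which encodes NKG2E, by 1.70 (SE 0.26, limma adjusted p = 0.0316) and Klrb1a by 2.44 (SE 0.49, limma adjusted p = 0.0413). The medians of the list were 1.67, 0.49 and -0.53 in these comparisons, and those of all genes -0.01, 0.05 and 0.06. Of all genes, 2.47% were called higher in the first, 13.1% higher in the second and 1.07% lower in the third. None of the 15 passed in antiPDL1 against control (5 at unadjusted p under 0.05), in combination against antiPDL1 (4) or in the interaction (10). Of the 11991 genes, 2034, 1727 and 293 reached that unadjusted level, in the same order.

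Of 14 adaptor and signalling genes, 3 rose with polyIC alone against control, where 2.47% of all genes were called higher. Hcst, which encodes the NKG2D adaptor DAP10, rose by 1.17 (SE 0.21, limma adjusted p = 0.0160) and Lck, a kinase of T and NK cells, by 1.64 (SE 0.38, limma adjusted p = 0.0433), and the other was Zap70. Hcst had 308, 324 and 304 FPKM in combination libraries, 392, 390 and 341 FPKM in polyIC libraries, 251, 182 and 173 FPKM in antiPDL1 libraries and 126, 171 and 213 FPKM in control libraries. It also rose with both agents, by 0.91 (SE 0.21, limma adjusted p = 0.0107) against control. With both agents 6 of 14 rose against control, led by Cd247, the zeta chain, at 2.49 (SE 0.37, limma adjusted p = 0.0021), and 1 fell, the kinase gene Syk, at -1.01 (SE 0.17, limma adjusted p = 0.00328). Of the 11991 genes, 13.1% were called higher there and 1951 genes lower. None of the 14 passed in combination against polyIC (1 at unadjusted p under 0.05), combination against antiPDL1 (8), antiPDL1 against control (4) or the interaction (0). Over all 11991 genes, 1624, 1727, 2034 and 293 were at that unadjusted level, in the same order.

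Of 15 genes for ligands of the receptors 14 were in the table and 5 passed the filter on low values. None of the 5 was called by limma in any of the 6 comparisons, in each of which 0 to 2 had an unadjusted p under 0.05. That level was reached by 293 of the 11991 genes in the interaction, the fewest, and by 5109 in combination against control, the most. H2-T23, which encodes the CD94/NKG2 ligand Qa-1, averaged 438 ± 26 FPKM in combination, 374 ± 73 FPKM in polyIC, 534 ± 263 FPKM in antiPDL1 and 378 ± 80 FPKM in control libraries (SD, n = 3 each). Pvr, which encodes the DNAM-1 ligand CD155, averaged 5.98 ± 0.63 FPKM in combination, 5.35 ± 0.59 FPKM in polyIC, 7.88 ± 0.59 FPKM in antiPDL1 and 7.56 ± 1.20 FPKM in control libraries (SD, n = 3 each). The NKG2D ligand genes Raet1a to Raet1e, H60b, H60c and Ulbp1 were below 1 FPKM in every library, Ulbp1 being listed at 0 in all, and H60a was not analysed here. The libraries hold leukocytes in the main, so ligand levels on hepatocytes were not measured.

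Markers of the cells that could carry the receptors moved as well. For 14 NK cell markers the summed FPKM lay between 3482 and 3736 in combination, 4120 and 5204 in polyIC, 994 and 2147 in antiPDL1 and 496 and 1256 in control libraries. Most of that sum came from Nkg7, with means of 1785 FPKM in combination, 1197 FPKM in polyIC, 627 FPKM in antiPDL1 and 231 FPKM in control libraries, and from Gzma, with means of 1098 FPKM in combination, 2404 FPKM in polyIC, 449 FPKM in antiPDL1 and 196 FPKM in control libraries. Taken singly, 11 of the 14 had lower values in combination than in polyIC libraries, with a median log2 difference of -0.91 against 0.06 over all genes. None of the 14 passed in that comparison by limma, and 9 had an unadjusted p under 0.05, a level that 1624 of the 11991 genes reached. The Ly49 gene Klra8, for example, averaged 14.6 ± 10.9 FPKM in combination, 68.3 ± 23.5 FPKM in polyIC, 9.12 ± 4.05 FPKM in antiPDL1 and 10.6 ± 7.4 FPKM in control libraries, and Xcl1, a chemokine gene, averaged 103 ± 34 FPKM in combination, 214 ± 71 FPKM in polyIC, 163 ± 27 FPKM in antiPDL1 and 140 ± 54 FPKM in control libraries (SD, n = 3 each). In the interaction 0 of 14 passed and 6 had an unadjusted p under 0.05, a level that 293 of the 11991 genes reached. For 10 T cell markers the sum lay between 2049 and 2552 in combination, 1315 and 1897 in polyIC, 635 and 1778 in antiPDL1 and 276 and 817 in control libraries. For the 8 receptors it lay between 287 and 508 in combination, 824 and 1261 in polyIC, 278 and 413 in antiPDL1 and 221 and 496 in control libraries. Against control, 8 of 14 NK cell markers rose with polyIC alone, led by Gzma (3.77, SE 0.45, limma adjusted p = 0.00314) and the Ly49 gene Klra4 (2.46, SE 0.42, limma adjusted p = 0.0144), and 5 of 14 with both agents, led by Eomes and Prf1. All 10 T cell markers rose with both agents against control and 3 with polyIC alone. Of all genes, 13.1% were called higher with both agents against control and 2.47% with polyIC alone. Of the T cell markers 1, Cd4, rose in combination relative to polyIC libraries (1.31, SE 0.27, limma adjusted p = 0.0441). In that comparison 20 of the 11991 genes were called higher. Of 3 type 1 innate lymphoid markers analysed (Itga1, Tnfsf10 and Cxcr6), Tnfsf10 rose with polyIC alone (1.02, SE 0.18, limma adjusted p = 0.0151), and Tnfsf10 and Cxcr6 rose with both agents. None of the listed NK, T or type 1 innate lymphoid markers was at 0 in a whole group.

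Other cell types also differed between the groups that were compared. In combination relative to polyIC libraries 6 of 8 hepatocyte markers and 2 of 5 endothelial markers fell. There 1.07% of all genes were called lower, and no B or Kupffer cell marker was called. An unadjusted limma p under 0.05 was reached by 8 of 8 B cell markers (median -1.285) and 4 of 5 Kupffer cell markers (median -2.90). That level was reached by 1624 of the 11991 genes. Relative to control libraries, all 8 B cell, 8 hepatocyte and 5 endothelial markers and 4 of 5 Kupffer cell markers fell in combination libraries. Of the 11991 genes, 1951 were called lower there. The Kupffer cell sum lay between 441 and 884 FPKM in combination, 1307 and 2141 FPKM in polyIC, 1271 and 5767 FPKM in antiPDL1 and 1870 and 8749 FPKM in control libraries. Of 5 neutrophil markers tested, 3 rose with polyIC alone and 3 with both agents against control, with medians of 3.84 and 2.16. In combination relative to polyIC libraries their median was -1.69, with 0 called by limma and 3 at an unadjusted p under 0.05, and in the interaction it was -2.20, with 0 called and 2 at that level. The neutrophil granule gene Ngp, for example, averaged 50.3 ± 22.1 FPKM in combination, 185 ± 75 FPKM in polyIC, 16.5 ± 15.8 FPKM in antiPDL1 and 9.53 ± 8.39 FPKM in control libraries (SD, n = 3 each). Of 5 monocyte markers 4 rose with both agents and 2 with polyIC alone against control, and in combination relative to polyIC libraries none passed or had an unadjusted p under 0.05 (median 0.24). Beside these neutrophil and monocyte counts, 2.47% of all genes were called higher with polyIC alone and 13.1% with both agents. In the interaction 293 of the 11991 genes had an unadjusted limma p under 0.05. The part of the cell type shifts in the receptor values was not tested.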

How the data were processed

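Strand-specific mRNA libraries of 12 samples (4 groups of 3) were made with a TruSeq kit, per the labels' protocols. The deposited table holds 1 value per gene and library, taken as FPKM from its values, which the authors made with Cuffdiff on mm9, per the submitters' processing notes. No source used here names the aligner or annotation. Depth is known only in relative terms, so precision rests on the spread between libraries. Genes listed at 0 in whole groups although a further group reached 5 FPKM (9 genes) were left out as failed estimates, and the 11991 genes that reached 1 FPKM in 3 or more libraries were tested. Differences were tested with limma 3.58.1 in R 4.3.3 (limma-trend on log2(FPKM + 1), group only, 1 fit). A pseudocount of 1 understates changes of low genes. Python 3.11.15, pandas 2.3.3 and scipy 1.17.1 gave exact permutation tests, overlaps and ratios. The fit was tested on simulated data. The receptors, gene lists and motifs were chosen with earlier results of these data known. Genes named beside the 8 receptors were, per list and comparison, up to 2 with the lowest adjusted p among those called. The most correlated genes per receptor were also named, besides Cd3e, Cd8a and Eomes. Klri1, Klri2, Zap70, Syk, H2-T23, Pvr, Nkg7, Klra8, Xcl1 and Ngp were named after their values were seen. Same-numbered libraries were not treated as pairs. Promoters are RefSeq, shared words GENCODE, both GRCm38, and positions in mm9 were not used here.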

Additional observations from a re-analysis of the deposited data

How the results depend on the processing

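All 8 receptors kept their sign in polyIC against control, in combination against polyIC and in the interaction under every alternative run. Counts of calls moved more, and the cause was not tested. Array quality weights called 8 receptors and 3439 genes in polyIC against control, 8 and 3654 in combination against polyIC, 2 (Klrb1c lower beside Cd226) and 6883 in combination against control, 1 (Cd226) and 2585 in antiPDL1 against control, 1 (Cd226) and 13 in the interaction, and 818 genes in combination against antiPDL1. Leaving out control replicate 2 and antiPDL1 replicate 2 together called 8 receptors and 2887 genes in polyIC against control, 6 and 1099 in combination against polyIC, 1 and 3375 in antiPDL1 against control, 86 genes in combination against antiPDL1 and 9 in the interaction. In combination against polyIC, where 1 receptor and 148 genes were reported, a pseudocount of 0.1 called 5 and 344, only the compared groups 7 and 1344, no filter 0 and 26, quantile normalization 0 and 6, median-of-ratios rescaling 0 and 110. Quantile normalization also called 0 receptors in combination against control and 783 genes in polyIC against control. No filter called 139 genes in antiPDL1 against control and 31 in combination against antiPDL1, and fits of only the compared groups called 2 and 1 there. A mean of at least 5 FPKM called 212 genes in polyIC, 5 in antiPDL1 and 1963 in combination, each against control, 77 in combination against polyIC, 6 in combination against antiPDL1 and 1 in the interaction. Keeping the failed estimates, an alternative chosen after seeing the data, called 40 genes in antiPDL1 against control and 12 in the interaction.

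Genes called split into 2004 higher and 1644 lower in combination against control under quantile normalization, against 1576 and 1951 as reported. In antiPDL1 against control the split was 4 and 17, against 0 and 25 as reported, and 4 and 26 under median-of-ratios rescaling. In combination against polyIC it was 4 and 2, against 20 and 128 as reported.

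Same-numbered libraries were not shown to be pairs, since their deviations from the group means correlated between -0.284 and 0.310 and 5 of 12 libraries correlated best with their own number. A replicate block called 0 receptors (Klrc1 at a limma adjusted p of 0.0580) and 7 genes in combination against polyIC and 1 gene in combination against antiPDL1, and 5 receptors in polyIC against control.

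Signs turned only for small differences that were not called. In antiPDL1 against control Klrc1 was 0.014 with array weights and 0.18 without the pair of libraries, and Klrd1 and Klrk1 were -0.14 and -0.0012 under quantile normalization. In combination against control Klrk1 was -0.12, -0.0088 and -0.081 under quantile normalization, rescaling and array weights. In combination against antiPDL1 Klrc2 was 0.017, 0.049 and 0.063 with a pseudocount of 0.1, quantile normalization and the pair of libraries out, and Klre1 was -0.23 with array weights.

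With 1 library left out, receptors called ranged from 0 to 8 in polyIC against control, 0 to 5 in combination against polyIC, and 0 to 1 in combination and in antiPDL1 against control. Genes called ranged from 44 to 1869 in polyIC, 1664 to 4504 in combination and 1 to 2086 in antiPDL1 against control, 2 to 528 in combination against polyIC, 0 to 330 in combination against antiPDL1 and 1 to 6 in the interaction. In antiPDL1 against control the changes ranged from -0.57 to 0.37 for Ncr1, -0.33 to 0.29 for Klrc1, -0.66 to 0.32 for Klrc2, -0.23 to 0.40 for Klrd1, -0.17 to 0.38 for Klrk1 and -0.12 to 0.69 for Klre1. In combination against control they ranged from -0.59 to 0.025 for Klrc2, -0.16 to 0.17 for Klrk1 and -0.021 to 0.79 for Klre1. In combination against antiPDL1 they ranged from -0.89 to 0.061 for Ncr1, -0.55 to 0.43 for Klrc2, -0.014 to 0.40 for Klrd1, -0.33 to 0.22 for Klrk1, -0.66 to 0.049 for Klrb1c, -0.19 to 0.39 for Klre1 and -0.063 to 0.17 for Cd226. The interaction could not be fitted on only the compared groups, which are all 4. Read counts behind a value are unknown, so differences among the lowest receptor, Klrc2, are limited by a depth that cannot be stated.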
